A study of Mus musculus with 52 samples.

Results

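The interferon response and antigen presentation genes of the mouse are the set of RNAs that cells raise after sensing foreign or misplaced nucleic acid, or after binding an interferon, together with the genes that load peptides onto MHC class I. Here the set had 44 members, taken by symbol from a count table of 55291 genes as genes of this function. All 44 were among the 25056 genes with enough counts to be tested. By role they were 4 nucleic acid sensors, 4 transcription factors, 5 members of the OAS family, 4 of the IFIT family, 4 membrane restriction factors, 6 genes of the ISG15 system and its ubiquitin and ADP-ribose ligases, 4 GTPases, 7 other effectors and 6 genes of antigen presentation.

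Poly(A) RNA of wild-type mouse stem cells and of embryo-like aggregates grown from them was sequenced in 52 libraries of 26 groups, with n = 2 libraries in every group. Extended pluripotent stem cells (EPSCs, line mc6-1/Mu-mClover3-10#) were kept in LCDM medium, and embryonic stem cells (mESCs, line 2i-0606-td-ES) in 2i/L medium. The totipotency medium was given to EPSCs for 2 days (S1), 25 passages (P25) or 38 passages (P38), and to mESCs for 2 days. Further EPSCs had 2 days of CHIR-99021, an inhibitor of the kinase GSK3, either alone or together with Elvitegravir (an HIV integrase inhibitor), PD0325901 (a MEK inhibitor) or CD1530 (an agonist of a retinoic acid receptor). Aggregates of S1 cells were taken after 1 day in a medium named 4C-64C (S2), and S2 aggregates after 1 more day in it (S3). At both stages 4 groups were grown without 1 agent each: 8Br-cAMP (an analogue of cyclic AMP), Birabresib (an inhibitor of the BET bromodomain proteins), CHIR-99021 or CD1530. S5 aggregates came from S4 aggregates after 3 days in a peri-implantation medium on Aggrewell plates, complete or without Activin A, BMP4, FGF4 or XAV 939 (a tankyrase inhibitor). All aggregates were made from the EPSC line, so every aggregate result rests on 1 line. The labels do not say whether S3 aggregates that lacked an agent had also lacked it at S2, nor whether the S1 cells made into aggregates had 2 days or many passages in totipotency medium.

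In an infected cell, RNA in the cytoplasm is recognised by helicases such as RIG-I (Ddx58) and MDA5 (Ifih1), which switch on type I interferon genes. Secreted interferon binds its receptor on the same or a neighbouring cell, and signalling through JAK kinases then brings STAT2 and IRF9 to the interferon-stimulated response element in the promoters of effector genes. Pluripotent stem cells are known to make little interferon and to respond to it weakly, a property that is lost as cells differentiate.

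Libraries held from 16.6 to 108 M counts, and values are CPM, counts scaled to a common library size with TMM factors. To be called higher or lower, a gene needed an adjusted p below 0.05 (edgeR's quasi-likelihood test with Benjamini-Hochberg adjustment over all tested genes) and a change of at least 1 on the log2 scale, and the words rose and fell are kept for such calls. The labels were checked with 2 markers. Pou5f1, a pluripotency factor, stood at 277 and 270 CPM in EPSCs and at 10.7 and 10.4 CPM in S1, and Zscan4c, a gene of 2-cell embryos, at 0 and 0 and at 429 and 463 CPM. The 12 libraries of EPSCs, S1 and the CHIR-99021 groups form a first set, submitted apart from the other 40, which have EPSC libraries of their own. In the first set 3756 tested genes had no count in any library. Among them was B2m, the light chain of MHC class I, and Ifitm2 stood at 0.155 and 0.0246 CPM in its EPSCs and at 0 in S1, against 136 to 166 CPM in EPSCs of the second set. Neither gene can be judged in the first set, so each treatment was compared with the EPSCs of its own set. No label says that the 2 libraries of 1 group are separate cultures, and p-values then measure the spread between these libraries, which may be technical.

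**Figure D1:**
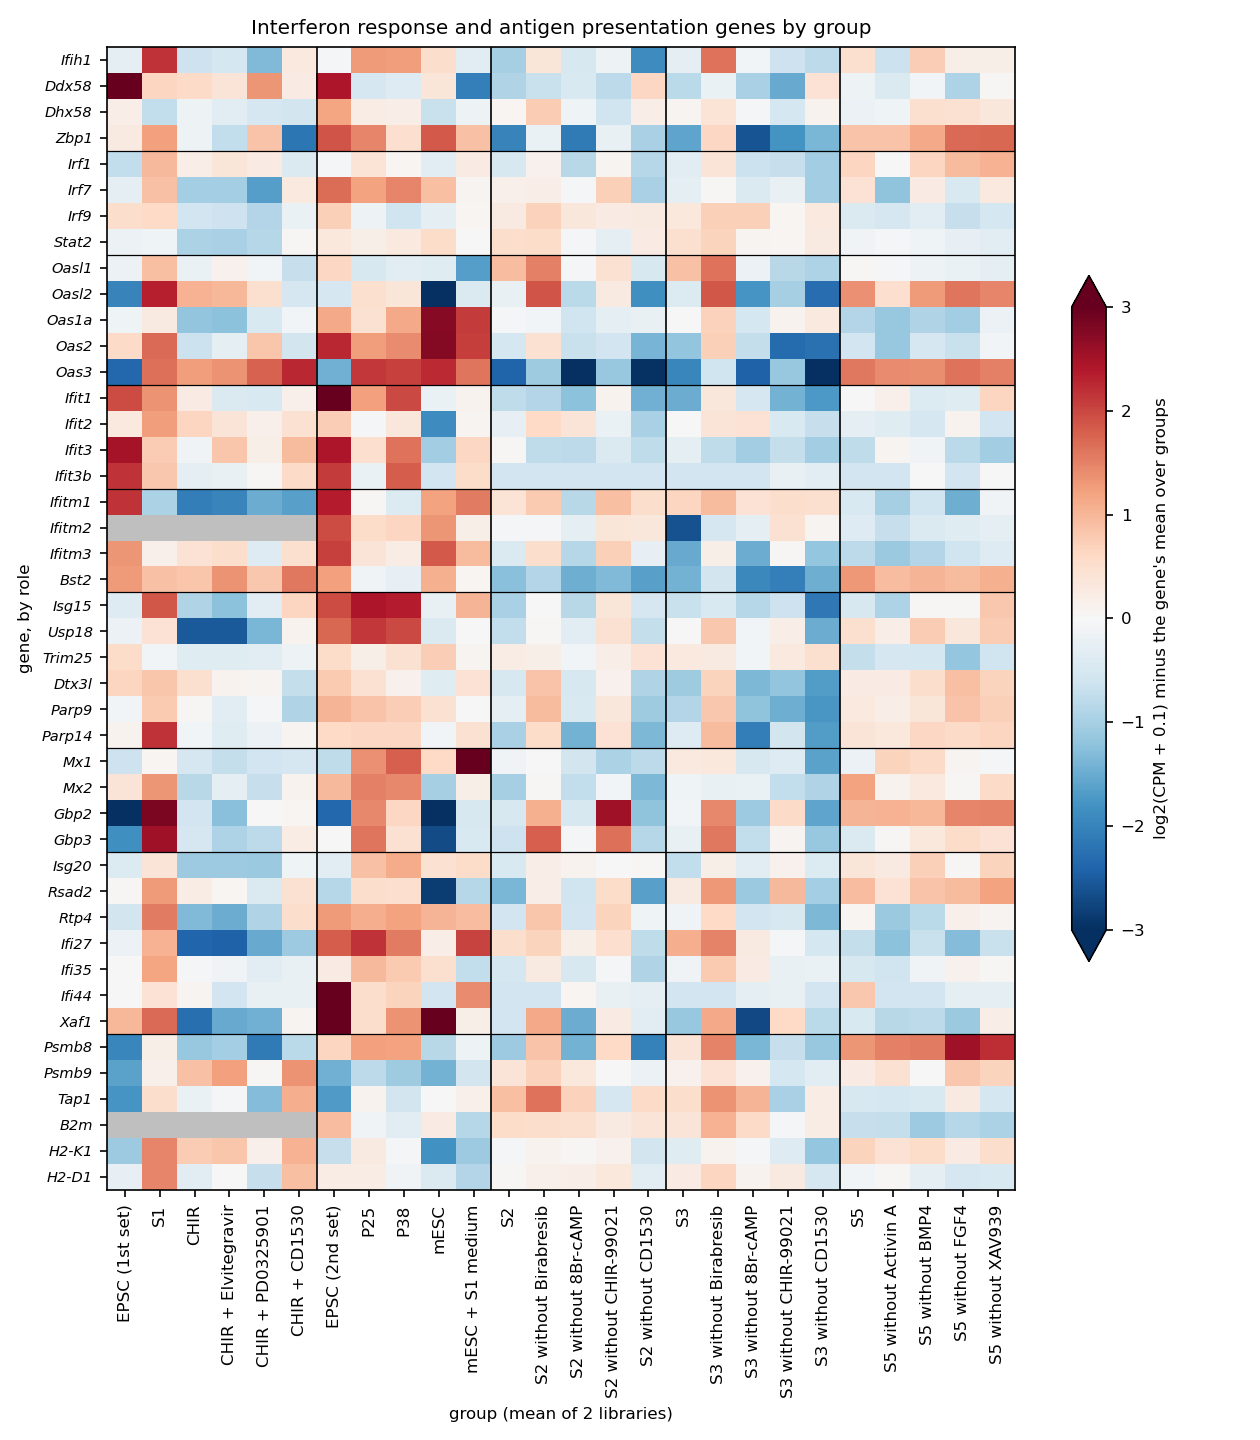
Heat map of the 44 members (rows, by role) in the 26 groups (columns); colour is log2 of the group's mean CPM plus 0.1, minus the gene's mean over groups, and grey marks B2m and Ifitm2 in the first set. The S1, P25, P38 and second EPSC columns are mostly red, and the S2 and S3 columns without Birabresib are redder than their neighbours in most rows.

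Over the 42 members that could be judged in every library, the mean log2 CPM was highest in S1 (2.55 ± 0.04, SD, n = 2) and lowest in S3 aggregates without CD1530 (0.44 ± 0.14). Untreated EPSCs stood at 1.48 ± 0.02 in the first set and at 2.38 ± 0.02 in the second, so these means differed widely. The second-set mean lay above P25 (2.28 ± 0.03) and P38 (2.29 ± 0.08) and below S1 only. Of low counts, 40.7% to 42.0% were even in second-set EPSCs, P25 and P38, and 66.8% to 80.5% in the other 46 libraries. Where these groups are ranked against the others, way of counting cannot be told apart from the state of the cells. Between the 2 sets of EPSCs, set and way of counting cannot be told apart either. Aggregates in full medium lay low, at 1.04 ± 0.01 in S2 and 1.15 ± 0.04 in S3. Without Birabresib the same mean was 1.83 ± 0.20 at S2 and 2.07 ± 0.05 at S3, the highest of the 5 groups at each stage. Single members ranged far more widely. Gbp2, a GTPase that coats the membranes around intracellular parasites, ran from 0.254 CPM in first-set EPSCs to 31.0 CPM in S1. Ddx58 ran from 5.84 CPM in treated mESCs to 334.1 CPM in first-set EPSCs, a range across the 2 sets.

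Omission of Birabresib was followed by higher RNA of many members. At S2, 12 of the 44 members rose, where 2.85% of all tested genes rose, and 0 fell, where 0.128% fell. At S3, 16 members rose, against 5.75% of all tested genes, and 0 fell, against 0.459%. The median log2 fold change of the members was 0.73 at S2 and 0.80 at S3, beside 0.02 and 0.04 over all tested genes. It was above 0 for 36 members at S2 and for 39 at S3, and for 51.7% and 52.8% of all tested genes. All 12 members that rose at S2 also rose at S3, which is 100.0% of the S2 list and 75.0% of the S3 list. Of all tested genes, 714 rose at S2 and 1441 at S3, and the 355 that did so at both stages were 49.7% and 24.6% of those lists. In bulk RNA, more cells that express a gene and more RNA per cell cannot be told apart. Without S2 library 1 the S2 count fell from 12 members to 7, and every other omission of 1 library left more.

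The OAS family makes or resembles enzymes that activate RNase L in the presence of double-stranded RNA. Oasl2 (chr5:114896936-114912234, plus strand) stood at 4.81 and 4.62 CPM in S2 and at 19.5 and 22.1 CPM without Birabresib. In S3 it stood at 4.71 and 3.64 CPM, and without Birabresib at 18.7 and 22.2 CPM. The groups did not overlap at either stage, and Oasl2 rose by 2.14 ± 0.21 (SE) on the log2 scale at S2 (adjusted p = 1.5e-08) and by 2.29 ± 0.21 at S3 (adjusted p = 3.0e-10). Oas3, the largest of the synthetases, rose from 0.229 and 0.275 to 0.804 and 0.781 CPM at S2 and from 0.417 and 0.335 to 1.06 and 1.18 CPM at S3. Oas2 rose at S3 only (2.12 ± 0.55, adjusted p = 0.0051), and Oas1a and Oasl1 were not called at either stage.

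Among the sensors, Ifih1 (MDA5, which binds long double-stranded RNA) stood at 0.401 and 0.908 CPM in S2 and at 2.18 and 1.47 CPM without Birabresib. In S3 its values were 1.18 and 1.12 CPM, and 4.61 and 4.49 CPM without Birabresib. Both libraries without Birabresib lay above both controls at each stage, and the log2 changes were 1.46 ± 0.44 (adjusted p = 0.028) and 1.98 ± 0.39 (adjusted p = 0.00035). Zbp1, a sensor of Z-form nucleic acid, also rose at both stages, by 2.43 and 2.63, from levels of 0.0928 to 0.313 CPM. Ddx58 and Dhx58, the other two sensors, were not called, with log2 changes for Ddx58 of 0.24 at S2 and 0.61 at S3.

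Dtx3l, a ubiquitin ligase, and Parp9, its ADP-ribosyltransferase partner, are neighbours on chromosome 16 that are read in opposite directions and share 8.0% and 9.4% of their exonic bases. Dtx3l stood at 9.10 and 8.31 CPM in S2, 21.6 and 22.5 CPM without Birabresib, 5.29 and 6.23 CPM in S3, and 17.1 and 21.6 CPM without Birabresib. Parp9 stood at 8.04 and 8.17, 18.1 and 19.7, 5.5 and 5.14, and 16.4 and 18.2 CPM in the same groups. The 2 genes moved alike, with log2 changes at S2 of 1.34 ± 0.16 and 1.22 ± 0.15 and at S3 of 1.75 ± 0.16 and 1.70 ± 0.15. Parp14, an ADP-ribosyltransferase on the same chromosome, rose by 1.54 ± 0.23 and 1.35 ± 0.22. The remaining genes of this role were not called: the ubiquitin-like modifier Isg15 changed by 1.35 ± 0.80 and 0.31 ± 0.76, and the ubiquitin ligase Trim25 by -0.03 and -0.02.

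The 2 guanylate-binding proteins rose at both stages. Gbp2 stood at 3.72 and 2.37 CPM in S2 and 9.70 and 8.48 CPM without Birabresib, and at 3.83 and 4.20 CPM in S3 and 11.7 and 11.9 CPM without it (1.58 ± 0.22 and 1.55 ± 0.21 on the log2 scale). Gbp3 rose from 0.859 and 0.385 to 3.96 and 3.54 CPM and from 0.788 and 0.893 to 3.09 and 3.34 CPM. The 2 genes are close relatives, and reads that fit both could have been split between them. Mx1 and Mx2, which block viral nucleocapsids, stood under 1 CPM in these groups and were not called. Of the other effectors, Xaf1, a pro-apoptotic protein, rose by 1.83 ± 0.33 and 2.48 ± 0.33, and Rsad2 (viperin) by 1.80 ± 0.34 and 1.07 ± 0.29.

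Membrane restriction factors stop viruses at fusion or budding. Ifitm3 stood at 27.6 and 29.2 CPM in S2, at 50.7 and 61.4 CPM without Birabresib, at 15.4 and 11.8 CPM in S3 and at 41.6 and 45.4 CPM without Birabresib. Its libraries without Birabresib were above the controls at both stages. It rose at S3 (1.68 ± 0.15, adjusted p = 2.0e-10), and at S2 its change of 0.98 (adjusted p = 1.8e-05) lay just under the fold needed for a call. Ifitm2 rose at S3, from 6.86 and 5.65 to 19.0 and 35.6 CPM. At S2 it stood at 39.0 and 37.2 CPM with Birabresib and at 32.7 and 42.4 CPM without. S3 aggregates without any other single agent had 31.3 to 57.8 CPM of Ifitm2, so that the full-medium S3 libraries stood low. 40.9% of its exonic bases lie under the gene model Gm45717, and counts of the 2 may be mixed. Of the IFIT family, Ifit1 rose at S3 (3.12 ± 0.97, adjusted p = 0.022), and Ifit3b had no count in either group at either stage.

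Of the 6 genes of antigen presentation, 1 rose at both stages. Psmb8, a subunit of the immunoproteasome, rose from 0.229 and 0.330 to 1.06 and 1.65 CPM at S2 and from 0.951 and 0.938 to 1.91 and 2.42 CPM at S3. Tap1, which carries peptides into the endoplasmic reticulum, stood at 34.5 and 36.6 CPM in S2, 58.4 and 58.8 CPM without Birabresib, 28.4 and 26.2 CPM in S3, and 49.2 and 47.6 CPM without Birabresib. These groups were far apart for their spread, but the log2 changes of 0.72 ± 0.12 and 0.83 ± 0.12 were too small for a call. H2-K1, a class I heavy chain, stood at 94.8 and 82.6 CPM and 90.0 and 104 CPM at S2, where the groups overlapped, and at 72.9 and 66.3 CPM and 96.7 and 97.0 CPM at S3. Its S3 change was 0.48 ± 0.09, and that of B2m was 0.67 ± 0.13 (adjusted p = 0.00029).

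The 4 transcription factors among the members were not called. Stat2 stood at 75.9 and 76.5 CPM in S2 and at 78.5 and 76.1 CPM without Birabresib, and at 72.2 and 77.1 CPM and 83.5 and 84.4 CPM at S3. Irf9, its DNA-binding partner, changed by 0.42 and 0.39 on the log2 scale, and Irf7, which drives interferon genes, by 0.07 ± 0.60 and 0.37 ± 0.60. Irf1 changed by 0.60 (adjusted p = 0.0022) and 0.70 (adjusted p = 0.00012), from 18.4 and 17.3 to 25.8 and 28.4 CPM at S2. Counting changes of any size and either sign at an adjusted p below 0.05, 16 members differed at S2 and 25 at S3. Of these, 4 and 9 were below the log2 threshold of 1. All tested genes were not counted at that rule. At an unadjusted p below 0.05 by edgeR's test stood 25 and 29 of the 44 members, beside 5696 and 7248 of the 25056 tested genes.

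**Figure D2:**
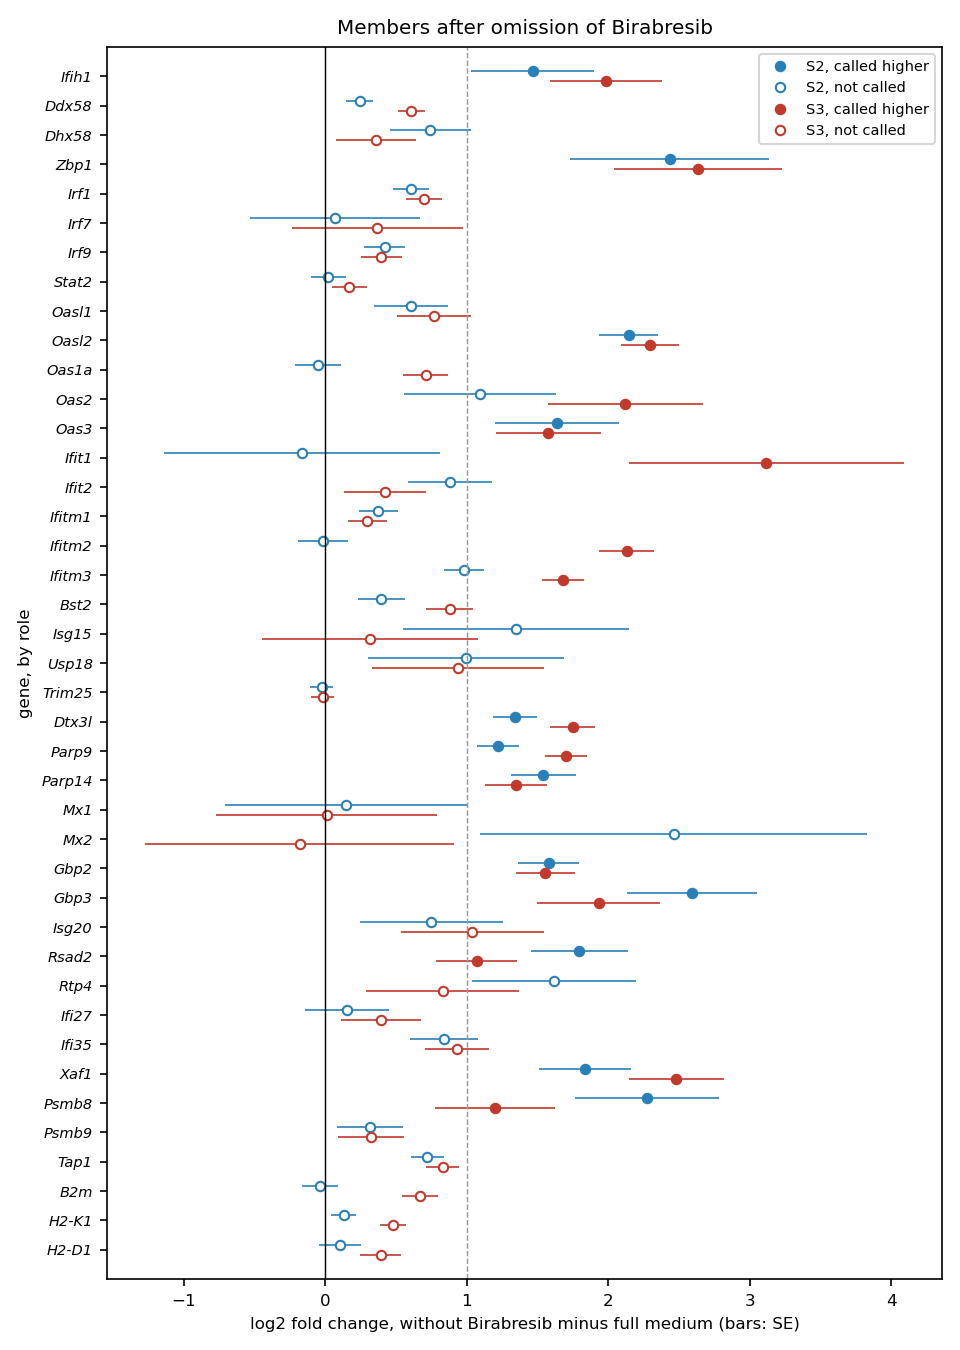
Log2 fold change (bars: SE) of 41 members without Birabresib against full medium at S2 (blue) and S3 (red); filled points were called higher, the dashed line marks the log2 threshold of 1, and Ifit3, Ifit3b and Ifi44, which had next to no counts, are left out. Both points are filled for 12 members, and those of the transcription factors lie between 0.02 and 0.70, unfilled.

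Promoters of the members were read for the core of the interferon-stimulated response element (GAAA, any 2 bases, then GAAA again) and the core of the gamma-activated site (TTCNNNGAA), on both strands. The promoters were the RefSeq windows of 250 bases before to 50 after the gene start (GRCm38.p6, the build also called mm10), and 34 of the 44 members had one. The response element was present in 16 of the 34 (47.1%), beside 1079 of all 27025 promoters (3.99%). TTCNNNGAA was present in 8 (23.5%), beside 2582 (9.55%). Of the 12 members in the table that rose without Birabresib at S3, 8 held the response element, and of the 22 not called, 8 did. At S2 the counts were 5 of 9 that rose and 11 of 25 not called. The windows below, 5′ to 3′ on the gene's strand, belong to 4 genes that rose at both stages and to Isg15, which did not, and show that the same element stood before genes of either kind. Capitals mark the match, which is given as its reverse complement where the element lies on the opposite strand.
Gbp2: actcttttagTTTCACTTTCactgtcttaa
Gbp3: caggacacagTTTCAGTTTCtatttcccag
Oas3: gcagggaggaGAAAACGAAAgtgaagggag
Rsad2: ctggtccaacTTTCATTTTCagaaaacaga
Isg15: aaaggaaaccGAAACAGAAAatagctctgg

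The Gbp2 window spans chr3:142620594-142620623 and that of Gbp3 chr3:142559989-142560018, both on the plus strand, with the match ending 50 and 36 bases before the RefSeq start. The GENCODE model of Gbp2 starts further upstream, at 142620602 on chromosome 3, so that its match lies just inside that model. The Oas3 window (chr5:120777715-120777744) and the Isg15 window (chr4:156200865-156200894), both on the minus strand, have it 66 and 57 bases before the RefSeq start. For Rsad2 (chr12:26456553-26456582, minus strand) the distance was 111 bases. A match describes the letters only. The pair Ifit3 and Ifit3b shows how alike such genes can be, since a window 147 bases before the first and 179 before the second was the same in all letters, and counts of the 2 genes may be mixed.
Ifit3 (chr19:34583363-34583392): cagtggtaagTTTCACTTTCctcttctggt
Ifit3b (chr19:34607759-34607788): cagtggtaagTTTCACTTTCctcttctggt

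The other genes of interferon signalling and antigen presentation, a list of 114 of which 100 were tested, were counted beside them. Without Birabresib 13 of them rose at S2 and 15 at S3, and 0 fell, with medians of 0.52 and 0.56 on the log2 scale. Lgals9, a galectin, rose from 1.11 and 1.16 to 6.92 and 8.29 CPM at S3, and Parp10 from 19.6 and 18.3 to 44.5 and 43.5 CPM. Igtp, a GTPase of the immunity-related family, rose from 4.34 and 3.15 to 12.1 and 10.8 CPM at S3, and Cd74, the invariant chain of MHC class II, from 2.76 and 3.31 to 6.8 and 6.91 CPM. Of the 9 further transcription factors, 1 rose at each stage: Batf2 at S2, from 0 in both libraries to 0.631 and 0.230 CPM, and Nlrc5, which drives class I genes, at S3, from 0.417 and 0.357 to 1.48 and 1.49 CPM. Of the 9 receptors and kinases, Il10rb, a receptor chain shared by interferon lambda and interleukin 10, rose at S3 from 3.85 and 3.24 to 6.87 and 7.61 CPM. Neither chain of the type I receptor was called: Ifnar1 changed by -0.05 and 0.07 and Ifnar2 by 0.33 and 0.26. Of 10 interferon genes on the list only 1 had enough counts to test, and Ifnb1 had no count in S2 or S3, with or without Birabresib.

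Other cell types and the inhibitor itself were followed by their markers. Hexim1, whose RNA is known to rise under BET inhibitors, stood at 136 and 125 CPM in S2, 89.5 and 105 CPM without Birabresib, 164 and 148 CPM in S3 and 95.5 and 94.6 CPM without Birabresib. It was lower without the inhibitor in all 4 libraries, by -0.43 (adjusted p = 0.0036) and -0.71 (adjusted p = 1.2e-06), short of a call. Myc changed by -0.67 and -0.02 and was not called. Of 6 listed reporters of BET inhibitors 5 were tested, and 0 were called at either stage. Their log2 changes had both signs, from -0.67 to 0.59 at S2 and from -0.99 to 1.33 at S3. The summed level of 10 immune cell markers ran from 22.9 to 25.4 CPM in S2 and from 29.5 to 36.6 CPM without Birabresib, and from 10.6 to 13.5 and from 24.5 to 32.4 CPM at S3. Of this sum Cd68 made up 7.24 to 30.7 CPM, and Ptprc stood at 0.223 CPM or less. Of the 8 immune markers tested 1 rose at S2, and at S3 1 rose and 1 fell. The 10 fibroblast markers, which would mark feeder cells, summed to 306 to 318 CPM in S2 and 446 to 464 CPM without Birabresib, and to 204 to 226 and 222 to 240 CPM at S3, with 0 and 1 of 10 called. The 3 markers of 2-cell-like cells rose at S3, from 7.28 in both libraries to 52.2 and 56.4 CPM in sum, and were not called at S2 (59.8 and 68.1 against 94.1 and 77.5 CPM). The 6 trophectoderm markers summed to 453 and 482 CPM in S3 and to 844 and 861 CPM without Birabresib, where Krt8 and Elf5 rose, and to 287 to 306 and 293 to 358 CPM at S2, with 0 called. The 8 markers of visceral endoderm summed to 94.8 and 99.7 CPM in S3 and to 136 and 138 CPM without Birabresib, and to 29.5 to 32.1 and 41.2 to 45.4 CPM at S2, with 1 higher at each stage (Afp at S3 and Sox17 at S2). Of 5 endothelial markers Tie1 rose at S3 and 0 at S2. The part of these cells in the members' change was not tested.

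Against the mean of the 3 other S3 omissions, which also lack 1 agent, 23 members were higher without Birabresib and 0 lower, where 10.7% and 0.87% of all tested genes were. The median was 1.27, beside 0.08. Against full S3 medium the members' median was itself -0.73 without CD1530, -0.25 without 8Br-cAMP and -0.21 without CHIR-99021. Tap1 fell by 1.51 without CHIR-99021. Falls in those groups thus enter this contrast beside the change without Birabresib. Oasl2 differed by 3.62 ± 0.16 (adjusted p = 1.2e-19), Parp9 by 2.31 ± 0.11 and Parp14 by 2.43 ± 0.17, and here Tap1 (1.27 ± 0.09) and Irf1 (1.19 ± 0.10) passed the threshold. Ifitm2 did not, at -0.58. Of the 23, Mx1 had no count in S3 aggregates without CD1530. The change at S3 was also compared with the change at S2. Only Ifitm2 differed by enough to be called (2.15 ± 0.26 more at S3, adjusted p = 3.2e-06), where 0.69% of all tested genes differed upwards and 0.18% downwards. Without S2 library 2 lacking Birabresib, the count was 2.

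**Figure D3:**
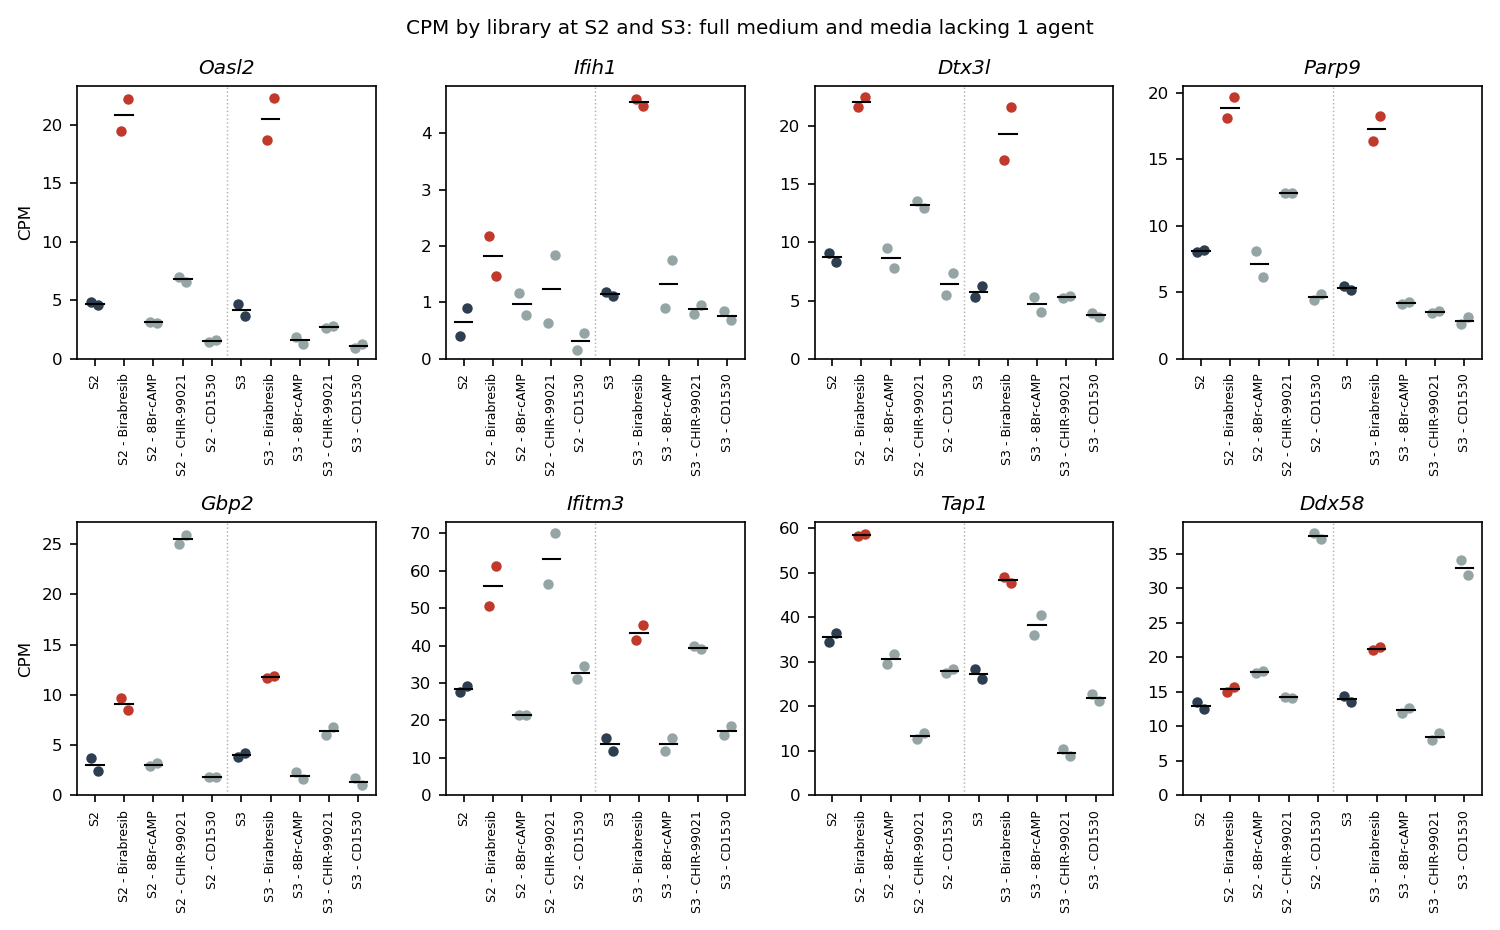
CPM of 8 members in each library (points) at S2 and S3 in full medium (dark), without Birabresib (red) and without another agent (grey); lines are group means. Oasl2, Dtx3l, Parp9 and Tap1 were highest without Birabresib at both stages, Gbp2 and Ifitm3 had their highest S2 means without CHIR-99021, and Ddx58 was highest without CD1530.

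The other 3 omissions share their full-medium libraries with the Birabresib comparison. Without CHIR-99021, 8 members rose and 1 fell at S2, where 2.86% and 2.22% of all tested genes did, and 3 rose and 3 fell at S3, against 5.04% and 4.11%. Gbp2 stood at 25.0 and 25.9 CPM without it at S2, against 3.72 and 2.37 CPM in full medium (3.07 ± 0.22, adjusted p = 2.5e-13), and Ifitm3 rose by 1.15 ± 0.14. Tap1 went the other way, to 12.6 and 14.0 CPM at S2 and 10.4 and 8.73 CPM at S3, a fall by 1.42 and by 1.51 on the log2 scale. Ifitm3 rose at S3 as well (1.54 ± 0.15), while Oasl1, an inactive relative of the synthetases, fell by 1.80. Of 6 trophectoderm markers 4 rose and 1 fell at both stages, and of 8 visceral endoderm markers 3 rose at S2 and 5 at S3, and their part was not tested.

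Without CD1530, 1 member rose and 3 fell at S2, where 0.718% and 1.61% of all tested genes did, and 2 rose and 11 fell at S3, against 1.97% and 3.82%. The median at S3 was -0.73, beside -0.04 over all tested genes. Ddx58 rose from 13.5 and 12.5 CPM to 38.0 and 37.1 CPM at S2 (1.53 ± 0.10, adjusted p = 6.8e-14) and from 14.4 and 13.5 CPM to 34.1 and 31.9 CPM at S3 (1.24 ± 0.09). Oasl2 fell from 4.81 and 4.62 CPM to 1.41 and 1.57 CPM at S2 and from 4.71 and 3.64 CPM to 0.884 and 1.23 CPM at S3. The 2 genes thus moved in opposite directions in the same libraries. Gbp2 (-1.59 ± 0.24), Oasl1 (-1.92 ± 0.29) and Parp14 (-1.34 ± 0.24) fell at S3 too, and Mx1, with no count left, was among the 11. Of 10 fibroblast markers 4 fell at S3, and their sum went from 204 and 226 to 97.0 and 102 CPM. Of 5 endothelial markers 3 fell, while their sum went from 73.3 and 78.0 to 80.3 and 83.5 CPM. The trophectoderm markers went from 482 and 453 to 862 and 900 CPM in sum. The immune markers went from 13.5 and 10.6 to 22.4 CPM in both libraries. The part of these cells was not tested.

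Without 8Br-cAMP, 0 members rose and 1 fell at S2, where 0.643% and 1.28% of all tested genes did. The 1 was Ifitm1, which fell to 7.85 and 9.21 CPM from 21.4 and 19.5 CPM. Without S2 library 2 the count was 2. At S3, 1 rose (Ifitm2) and 7 fell, against 2.83% and 3.8%. Parp14 fell by 1.74 ± 0.25, Rsad2 by 1.56 ± 0.33 and Oasl2 by 1.39 ± 0.23. Leaving out S3 library 2 without 8Br-cAMP reduced the 8 to 5. At S3, 5 of 8 visceral endoderm markers and 3 of 8 immune markers also fell, and their part was not tested.

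After 2 days of totipotency medium (S1), members rose and fell in EPSCs. In all, 20 members rose, where 18.7% of all tested genes rose, and 5 fell, where 9.16% fell. One of the 5 was Ifitm2, which cannot be judged in this set. The median was 1.09 on the log2 scale, beside 0.00 over all tested genes. All tested genes include the 3756 without a count in the first set, which could not be called here. They enter these shares and this median as unchanged, and the same holds for the CHIR-99021 comparisons below. By role, 5 of 6 genes of antigen presentation rose (the sixth, B2m, had no counts), 4 of 5 of the OAS family, 4 of 7 other effectors, 2 of 4 GTPases and 2 of 6 of the ISG15 role. Of the sensors 2 of 4 fell and 1 rose, and of the membrane restriction factors Ifitm1 and Ifitm3 fell.

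Gbp2 showed the largest of these rises. It stood at 0.311 and 0.197 CPM in EPSCs and at 31.0 and 31.1 CPM in S1, a log2 change of 6.90 ± 0.29 (adjusted p = 3.5e-21). Oasl2 went from 1.86 and 0.739 CPM to 28.2 and 28.4 CPM (4.42 ± 0.24, adjusted p = 2.6e-18), and Oas3 from 0.178 and 0.345 CPM to 5.99 and 5.49 CPM (4.46 ± 0.36). Parp14 rose from 4.68 and 5.57 CPM to 20.2 and 23.2 CPM. For all 4 genes the S1 libraries were close together and far above the EPSCs. Gbp3 (4.90), Ifih1 (2.57), Isg15 (2.57), Rtp4 (2.38), Rsad2 (1.30), Ifi27 (1.25), Ifi35 (1.18), Oas2 (1.17), Oasl1 (1.13) and Ifit2 (1.01) rose as well.

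The class I pathway rose at several steps. H2-K1 went from 42.2 and 41.9 CPM in EPSCs to 269.7 and 225 CPM in S1 (2.55 ± 0.09, adjusted p = 5.4e-23) and H2-D1, the other heavy chain, from 32.4 and 33.2 CPM to 121 and 93.2 CPM. Tap1 went from 5.13 and 5.81 CPM to 28.2 and 26.5 CPM (2.32 ± 0.13), Psmb8 rose by 2.90 and Psmb9, its neighbour and partner subunit, by 1.84. Irf1, which activates class I genes, went from 14.3 and 15.4 CPM to 48.4 and 48.5 CPM (1.71 ± 0.13). No group overlapped with the other for H2-K1, H2-D1, Tap1 or Irf1. H2-K1 and H2-D1 are close relatives, and reads may have been shared between them.

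Ddx58 (RIG-I; chr4:40203773-40239828, minus strand) fell from 330.1 and 338 CPM to 39.7 and 36.9 CPM (-3.12 ± 0.10, adjusted p = 2.8e-25), the smallest adjusted p of any member here. Ifitm1, a surface protein of early embryonic cells as well as a restriction factor, fell from 71.0 and 67.4 CPM to 7.91 and 7.83 CPM (-3.13 ± 0.15), and Ifitm3 from 97.5 and 95.3 CPM to 44.3 and 42.2 CPM (-1.16 ± 0.14). Dhx58 (LGP2, a regulator of the other two helicases) fell from 1.35 and 1.60 CPM to 0.76 and 0.70 CPM. Its change of -1.01 ± 0.28 was at the threshold, and with RLE scaling it was -0.97 and no call. Stat2 (0.04), Irf9 (0.05) and Irf7 (1.28 ± 0.58, adjusted p = 0.070) were not called.

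**Figure D4:**
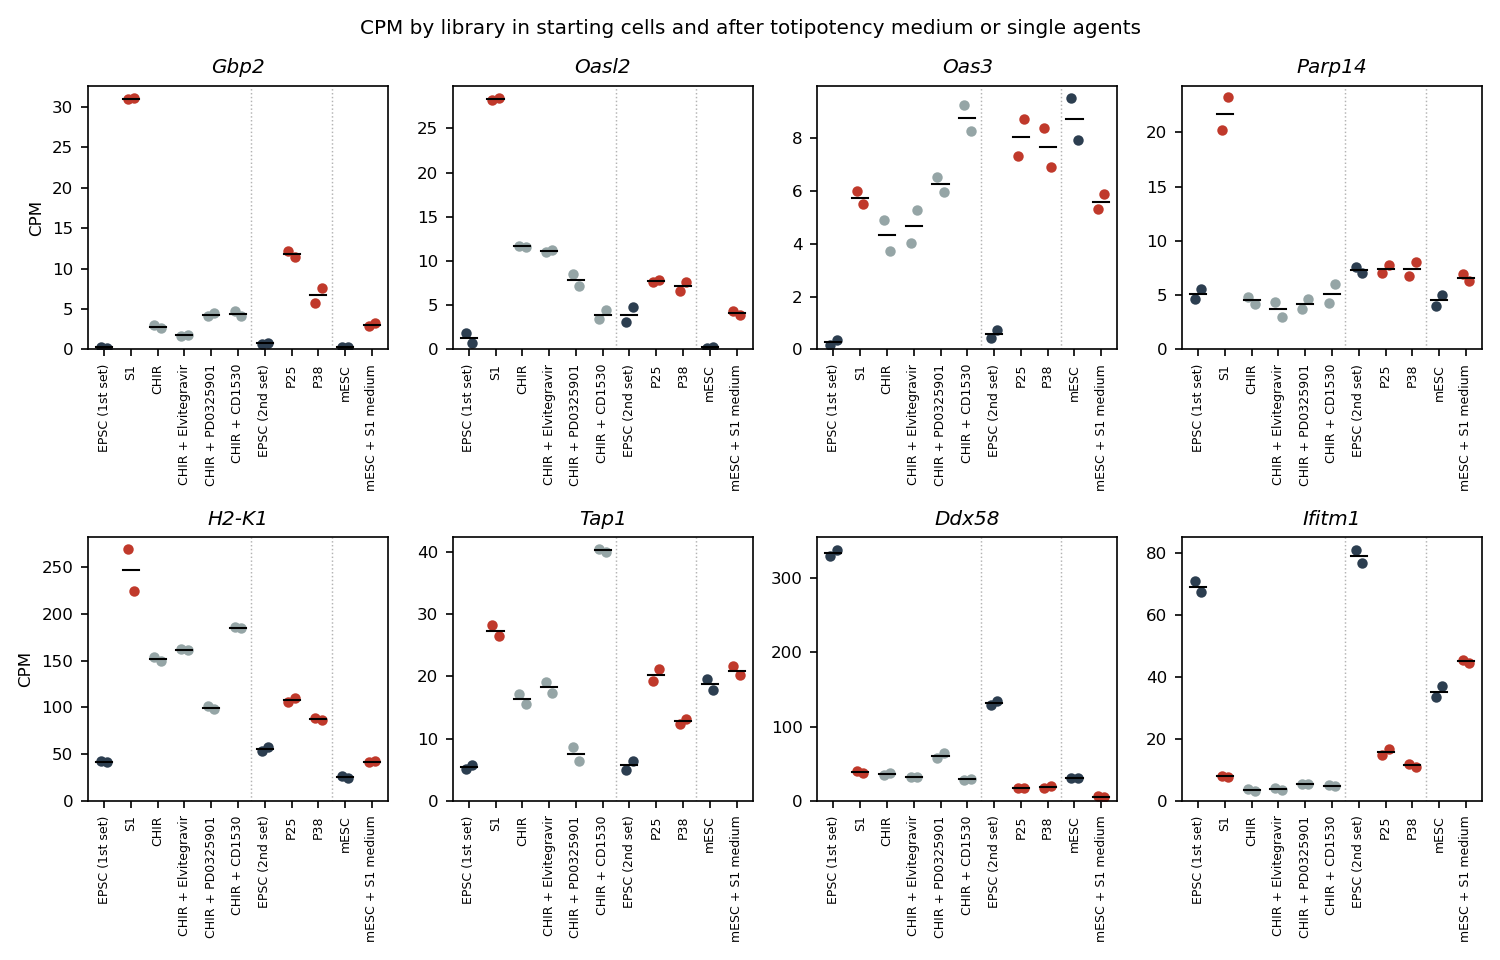
CPM of 8 members by library (points; lines are group means) in untreated cells (dark), after totipotency medium (red) and with CHIR-99021 alone or with 1 agent (grey); dotted lines separate the first set of EPSC libraries, the second set and mESCs. Gbp2, Oasl2 and Parp14 peak in S1, while Ddx58 is highest in both sets of EPSCs and low after every treatment.

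Of the 100 further pathway genes tested, 47 rose and 5 fell in S1, with a median of 0.99. Jak2, a kinase of the interferon gamma receptor, rose from 7.37 and 7.39 CPM to 109 and 108 CPM, and Cd74 from 0.777 and 0.517 CPM to 28.8 and 25.5 CPM. Erap1, which trims peptides for class I, rose by 3.58 and Parp10 by 2.97. Socs3, a brake on JAK signalling that is induced by LIF, fell from 133 and 136 CPM to 5.4 and 4.5 CPM. Ifnar1 changed by -0.11, Ifnar2 by 0.29 and Irf3 by -0.59, none of them called, and Ifnb1 had no count. All 5 pluripotency markers fell in S1, and the 6 trophectoderm markers summed to 914 to 1210 CPM, against 39.8 to 41.8 CPM in EPSCs. The immune markers summed to 14.8 to 15.2 CPM, against 9.21 to 11.9 CPM, and 2 of 8 tested rose. The fibroblast markers summed to 309 to 334 CPM, against 320 to 346 CPM, while 2 of 10 rose and 3 fell. Of 8 visceral endoderm markers 3 rose, and of 5 endothelial markers 3 rose and 1 fell. Their part in the members' change was not tested.

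CHIR-99021 alone was compared with the same EPSC libraries as S1. After 2 days, 7 members rose and 12 fell, where 11.7% and 6.99% of all tested genes did, and the median was -0.41. Of the 12, Ifitm2 cannot be judged and Usp18, the protease that removes ISG15, had no count left. H2-K1 rose to 154 and 150 CPM (1.86 ± 0.09), Oasl2 to 11.7 and 11.5 CPM (3.14 ± 0.23), Oas3 to 4.90 and 3.73 CPM (4.06 ± 0.37) and Tap1 to 17.1 and 15.6 CPM (1.58 ± 0.13). Ddx58 changed by -3.20 ± 0.10 with CHIR-99021, beside -3.12 in S1, and Ifitm1 by -4.28 ± 0.16, beside -3.13. Xaf1 (-3.86 ± 0.41) and Irf9 (-1.11 ± 0.15) fell with CHIR-99021 and were not called in S1, a difference that was not tested. Of 8 visceral endoderm markers 6 rose, and of 10 fibroblast markers 8 fell, and their part was not tested.

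Agents added to CHIR-99021 were compared with CHIR-99021 alone. With Elvitegravir 0 members rose and 0 fell by edgeR's test, where 0.00399% of all tested genes rose and as many fell, and DESeq2 called 0 members. At an unadjusted p below 0.05 by edgeR's test stood 5 of the 44 members, beside 4529 of the 25056 tested genes. With PD0325901, 2 members rose and 1 fell, where 3.27% and 1.24% of all tested genes did. Tap1 fell by 1.09 ± 0.13 and Oas2 rose by 1.67 ± 0.54, and the third was Usp18, which had no count with CHIR-99021 alone. The count of 3 was 0 without CHIR-99021 library 1 and 5 without library 2. With CD1530, 9 members rose and 3 fell, where 9.74% and 6.91% did, and Usp18 was again among them. Tap1 rose to 40.5 and 39.9 CPM from 17.1 and 15.6 CPM, H2-D1 by 1.23 ± 0.15 and Xaf1 by 2.89 ± 0.43. Oasl2 fell by 1.57 ± 0.21 and Dtx3l by 1.20 ± 0.16. In the same libraries the visceral endoderm markers summed to 1799 and 1815 CPM with CD1530, against 185 and 176 CPM with CHIR-99021 alone (6 of 8 rose), and the trophectoderm markers to 581 and 584 CPM, against 90.9 and 74.2 CPM (6 of 6 rose). Their part was not tested.

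In mESCs the same 2 days gave 9 members that rose and 7 that fell, where 14.2% and 8.26% of all tested genes did, and a median of 0.35 beside 0.04. Of the 9, Ifit3 and Ifi44 had no count in untreated mESCs. Oasl2 went from 0.131 and 0.299 CPM to 4.29 and 3.93 CPM (4.19 ± 0.33), Gbp2 from 0.328 and 0.299 CPM to 2.87 and 3.24 CPM (3.27 ± 0.32), and Ddx58 from 31.0 and 31.4 CPM to 5.99 and 5.68 CPM (-2.42 ± 0.10). All 3 changed with the same sign in EPSCs. Xaf1 fell from 17.8 and 18.2 CPM to 1.24 and 1.33 CPM and B2m from 51.7 and 57.9 CPM to 25.3 and 25.4 CPM. H2-K1 stood at 26.2 and 24.7 CPM before and at 41.4 and 42.7 CPM after, Tap1 at 19.6 and 17.7 CPM and at 21.6 and 20.2 CPM, and Ifitm1 at 33.7 and 37.0 CPM and at 45.7 and 44.4 CPM, none of them called. All 6 trophectoderm markers rose and 5 of 10 fibroblast markers fell while 1 rose, and their part was not tested.

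The difference between the EPSC and mESC responses was tested as 1 contrast, each response against its own untreated cells. It was called for 25 members, 18 higher and 7 lower in EPSCs, where 9.97% and 8.7% of all tested genes were. Without members that had no count in a compared group or cannot be judged in the first set, 22 were left, 18 higher and 4 lower. H2-K1 rose by 1.83 ± 0.13 more in EPSCs, Tap1 by 2.16 ± 0.17 and Oas3 by 5.10 ± 0.45, while Xaf1 differed by 4.52 ± 0.41 and Ifitm1 by -3.48 ± 0.20. The 2 untreated cell types also differed, with 3 members higher and 21 lower in mESCs than in second-set EPSCs, where 9.66% and 9.94% of all tested genes were. Of the 21, Ifit3, Ifit3b and Ifi44 had no count in mESCs. Ddx58 was lower in mESCs by -2.08 ± 0.09, H2-K1 by -1.12 ± 0.09 and Oasl2 by -4.12 ± 0.35, and Tap1 was higher by 1.71 ± 0.14. Among counts from 1 to 10, 68.7% and 71.8% were even in the mESC libraries and 42.0% and 41.8% in second-set EPSCs. Cell type and way of counting cannot be told apart in this comparison. Untreated mESCs held 2271 to 2377 CPM of fibroblast markers in sum, treated mESCs 1078 to 1083 CPM and second-set EPSCs 849 to 857 CPM. Their part in the differences was not tested.

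**Figure D5:**
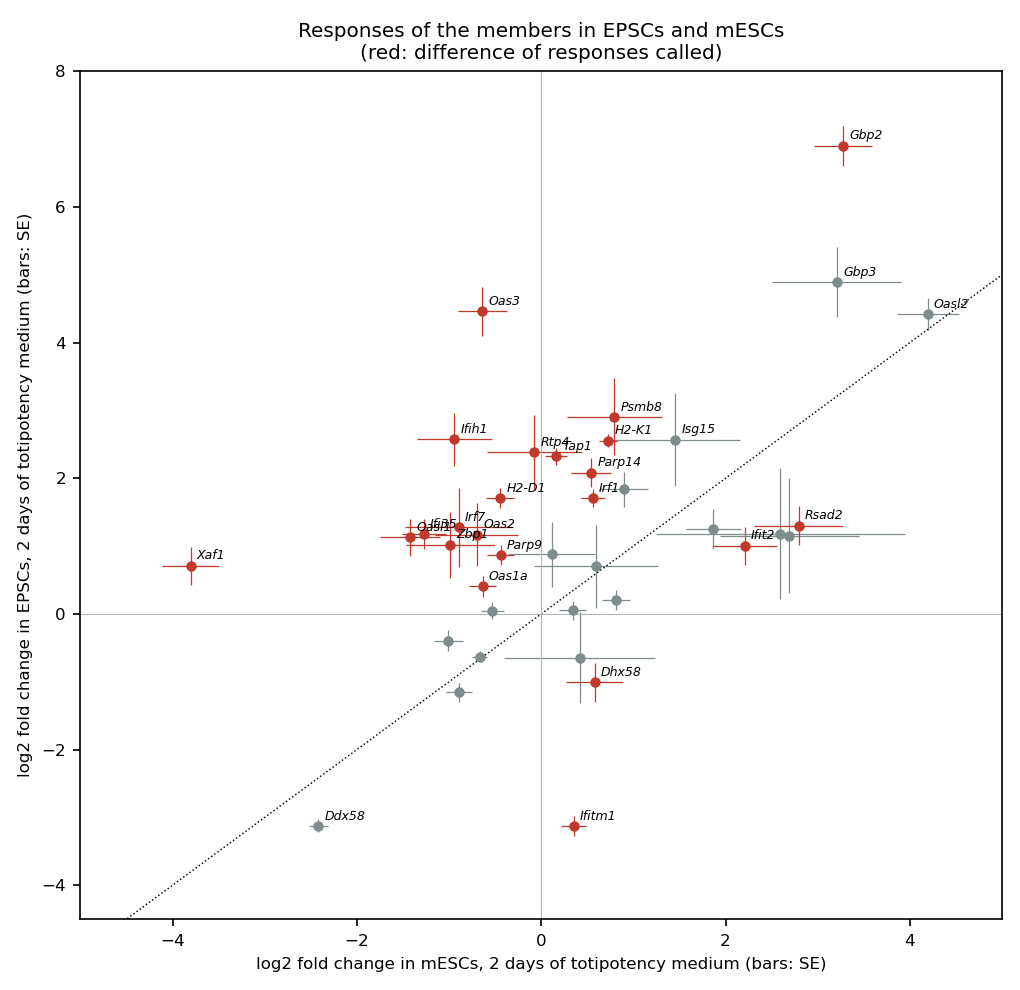
Log2 fold change after 2 days of totipotency medium (bars: SE) in mESCs (horizontal axis) and EPSCs (vertical axis) for 39 members; red points are those whose difference of responses was called, and the dotted line marks equal responses. Gbp2, Oas3, Tap1 and H2-K1 lie above the line, Ifitm1 lies far below it, and Ddx58 and Oasl2 lie near it.

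Cells kept in totipotency medium over many passages were compared next. In P25 cells, against the EPSCs of their own set, 7 members rose and 10 fell, where 13.2% and 5.5% of all tested genes did, and the median was -0.17 beside 0.02. Ddx58 went from 129 and 135 CPM to 17.9 and 16.8 CPM (-2.93 ± 0.10), Ifitm1 from 81.2 and 76.9 CPM to 14.7 and 16.8 CPM (-2.33 ± 0.15), and Xaf1 from 12.8 and 13.3 CPM to 1.95 and 1.42 CPM. Gbp2 went from 0.701 and 0.802 CPM to 12.2 and 11.4 CPM (3.97 ± 0.29) and Tap1 from 5.02 and 6.41 CPM to 19.3 and 21.2 CPM (1.82 ± 0.14). H2-K1 stood at 53.5 and 57.2 CPM and at 106 and 110.3 CPM, short of a call. In the same comparison the trophectoderm markers went from 83.5 and 84.3 to 918 and 959 CPM in sum (5 of 6 rose), those of visceral endoderm from 5.5 and 5.56 to 48.5 and 52.7 CPM (6 of 8 rose), and the fibroblast markers from 849 and 857 to 1335 and 1347 CPM (2 rose and 2 fell of 10), and their part was not tested. The P25 response differed from the 2-day response for 16 members, all lower at P25, where 4.76% of all tested genes were higher and 4.54% lower. The member mean was 2.55 in S1 and 2.28 in P25, and 1.48 and 2.38 in the untreated EPSCs of their sets. Among counts from 1 to 10, 70.2% and 71.9% were even in the S1 libraries and 42.0% and 40.7% in those of P25. Set, way of counting and duration cannot be told apart in this comparison. The largest differences of responses by adjusted p were those of H2-K1 (-1.59 ± 0.13), Oasl2 (-3.44 ± 0.33), Xaf1 (-3.66 ± 0.42) and H2-D1 (-1.72 ± 0.21). Between P38 and P25, 14 of the 44 members and 2977 of the 25056 tested genes had an unadjusted p below 0.05 by edgeR's test. By that test 0 members were called, and 0 by DESeq2, where 0.0319% of all tested genes rose and 0.307% fell. Without P38 library 2 the count was 1.

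In S2 aggregates against P25 cells, which may not be their source, 2 members rose and 20 fell. Of all tested genes 4.69% and 11.4% did, and the members' median was -1.15. Among counts from 1 to 10, 42.0% and 40.7% were even in the P25 libraries and 69.6% and 69.4% in those of S2. Stage and way of counting cannot be told apart in this comparison. Of 6 trophectoderm markers 5 fell and 1 rose, and of 10 fibroblast markers 5 fell, and their part was not tested. Oas3 fell from 7.32 and 8.73 CPM to 0.229 and 0.275 CPM (-4.97 ± 0.38), Gbp2 by 1.96 ± 0.22, and Bst2 (tetherin, which holds budding virus at the cell surface) by 1.15 ± 0.17. Oasl1 (1.47 ± 0.31) and Psmb9 (1.20 ± 0.27) rose. From S2 to S3, 2 rose and 2 fell, where 1.9% and 3.37% did. They were Rsad2 and Psmb8, and Ifitm2 and Ifitm3. Without S3 library 2 the count of 4 was 2.

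From S3 to S5, 12 members rose and 4 fell, where 14.1% and 8.5% of all tested genes did, with a median of 0.67. Of the 12, Ifi44 had no count in S3. Bst2 went from 22.7 and 20.2 CPM to 129.9 and 157 CPM (2.74 ± 0.17, adjusted p = 4.8e-16), H2-K1 from 72.9 and 66.3 CPM to 146 and 141 CPM (1.05 ± 0.09) and Oas3 from 0.417 and 0.335 CPM to 5.02 and 5.88 CPM (3.85 ± 0.34). Tap1 (-1.02 ± 0.12) and B2m (-1.08 ± 0.13) fell, so that the heavy chain and the peptide transporter moved in opposite directions. The visceral endoderm markers went from 94.8 and 99.7 to 1795 and 2704 CPM in sum (7 of 8 rose), 9 of 10 fibroblast markers fell and 1 rose, and 3 of 5 pluripotency markers fell, and their part was not tested. Omission of an agent at S5 moved few members. Without Activin A, BMP4 or XAV 939, 0 members were called by edgeR's test and 0 by DESeq2, and 12, 4 and 13 had an unadjusted p below 0.05. The share of all tested genes at that unadjusted p was not set beside these counts, so they are not read further. In these comparisons 0.407% and 0.714%, 0.016% and 0.0399%, and 1.13% and 1.01% of all tested genes rose and fell. Without FGF4, Psmb8 rose by 1.26 ± 0.41 and Ifitm1 fell by 1.03 ± 0.15, where 2.12% and 2.53% did. Leaving out any 1 of the 4 libraries reduced these 2 calls to 1 or 0.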

How the data were processed

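Counts per gene were deposited by the authors as whole numbers for 55291 genes in 52 columns, each joined to 1 sample by its label. The submitters' processing notes name Trimmomatic 0.39, STAR 2.7.10b with mm10, and featureCounts 2.0.6. Annotation and strand: not given in the sources used here. Among counts from 1 to 10, 66.8% to 80.5% were even in 46 libraries and 40.7% to 42.0% in the EPSC libraries of the second set, P25 and P38, as if each mate of a pair had been counted in the former.

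The members, lists, comparisons and rules were chosen with earlier results of these data known. Groups follow the treatment labels, with the EPSC libraries split by set. Genes were kept with filterByExpr (25056), scaled by TMM, and fitted in 1 quasi-likelihood model with 1 mean per group over all 52 libraries (edgeR 4.0.16, limma 3.58.1, R 4.3.3). Contrasts of these means gave 28 comparisons, with Benjamini-Hochberg adjustment over the 25056 genes. Calls needed an adjusted p below 0.05 and a change of at least 1 on the log2 scale. SE is the size of the change over the root of F. Means over members are of log2 CPM (prior count 2). On data simulated for the S3 comparison without Birabresib (24664 genes), 80 of 100 genes changed by 1.5 on the log2 scale and 97 of 100 changed by 3 were called, and 2 of 24464 unchanged genes. The changed genes were drawn only from those above a minimum mean count in S3, so these shares do not describe members with few counts. Totals of 16.6 to 108 M counts limit precision for members under about 1 CPM. Within a group, chi-square per degree of freedom between libraries was 2.41 to 121.

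Any member could be named. Full statistics were given for called members with at least 1 CPM in a compared group, ranked by adjusted p, up to 8 per direction in the comparisons of S1 and of Birabresib and 4 in others, and for up to 4 or 2 called pathway genes. Ifih1, Oas2, Ifit1, Zbp1 and uncalled members were added after their values were seen. Alternatives were RLE size factors, no filter, DESeq2 1.42.0, the libraries of 1 family alone, the replicate number as a block, pooled EPSCs, and each library left out. For the means over members a prior count of 0.5 was also used. A comparison at S2 with the mean of the other omissions was added after the data were seen. Coordinates are from GENCODE M21 (mm10), and promoter windows were searched in Python 3.11.15 with 10 bases on each side of a match.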

Additional observations from a re-analysis of the deposited data

Results flagged for a closer look

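Each of 3 contrasts of responses had members that differed by the test of the difference itself (edgeR's quasi-likelihood test with Benjamini-Hochberg adjustment). The first set the change without Birabresib at S3 against that at S2 and called 1 member, Ifitm2, whose change was higher at S3 by 2.15 on the log2 scale. Its full-medium S3 libraries stood at 6.86 and 5.65 CPM and all other S2 and S3 libraries at 19.0 CPM or more, so these 2 libraries stood apart.

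The second set the 2-day response of EPSCs against that of mESCs and called 25 members. Among those with full statistics, the response of EPSCs was higher for H2-K1 (1.83), Tap1 (2.16), Oas3 (5.10) and Xaf1 (4.52) and lower for Ifitm1 (-3.48) and Dhx58 (-1.59). Of the 25 calls, 3 (Ifit3, Ifit3b and Ifitm2) rest on members at or near 0 in a compared group. The cell lines, media and sets of libraries differ along with the cell type and cannot be told apart from it.

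The third set the response of P25 cells against the 2-day response and called 16 members, all lower at P25. H2-K1 differed by -1.59, Oasl2 by -3.44, Xaf1 by -3.66 and H2-D1 by -1.72. The 2 responses come from different sets of libraries, each with its own EPSCs, so set, way of counting and duration cannot be told apart. The member mean was 1.48 in the untreated EPSCs of the first set and 2.38 in those of the second, on the log2 CPM scale.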

How the results depend on the processing

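With RLE size factors, DESeq2 or pooled EPSC libraries, the number of called members stayed within 1.5 times its main value in every comparison run. Without the low-count filter it went from 0 to 1 for Activin A omission at S5, and with the libraries of 1 family alone from 0 to 2 for P38 against P25. No named member changed direction under any alternative. DESeq2 called 13 members higher without Birabresib at S2 and 16 at S3. Against the mean of the other S2 omissions, an alternative chosen after the data were seen, 12 members were higher without Birabresib, but Gbp2 (0.81) and Rsad2 (0.89) lay under the threshold.

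Leaving out 1 library at a time, the called members ranged from 7 to 12 for Birabresib at S2 (12 with all libraries, 7 without S2 library 1) and from 11 to 15 at S3 (16), from 21 to 24 against the other S3 omissions (23) and from 1 to 2 for the difference of the stages (1). They ranged from 21 to 23 for S1 (25), 15 to 16 for CHIR-99021 (19), 0 to 5 for PD0325901 (3), 9 to 14 for CD1530 (12), 14 to 16 for treated mESCs (16), 18 to 21 for mESCs against EPSCs (24), 13 to 15 for P25 (17), 0 to 1 for P38 (0), 17 to 22 for S2 (22), 2 to 3 for S3 (4) and 12 to 16 for S5 (16). For the omissions they ranged from 1 to 2 for 8Br-cAMP at S2 (1), 5 to 8 at S3 (8), 6 to 9 for CHIR-99021 at S2 (9), 6 to 7 at S3 (6), 3 to 4 for CD1530 at S2 (4), 10 to 13 at S3 (13) and 0 to 1 for FGF4 (2), and were 0 throughout for Elvitegravir, Activin A, BMP4 and XAV 939. The response of EPSCs against mESCs ranged from 18 to 22 (25) and that of P25 against 2 days from 12 to 17 (16). A group left with 1 library is assumed to vary like the others.

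With the replicate number as a block, 24 members were called for S1, 9 for Birabresib at S2, 15 at S3, and 23 against the other S3 omissions. Correlations of same-numbered libraries within a stage or set ran from -0.04 to 0.43, with medians between -0.01 and 0.00, and since they were not above 0.1 throughout, the numbers were not taken to pair the samples. No block was fitted for the comparisons with second-set EPSCs, whose titles number the libraries 3 and 4. Values of members under about 1 CPM in S2 and S3, such as Isg15, Mx1, Mx2, Ifit3, Ifit3b and Ifi44, rest on few counts. Setting members without counts to a floor of 3 counts moved no member median of 24 comparisons by more than 0.095. The member means depend on the prior count. With 0.5 in place of 2, the S2 libraries stood at 0.82 and 0.85 in place of 1.04 and 1.03. S3 libraries without CD1530 stood at -0.06 and 0.23 in place of 0.34 and 0.53, and S1 at 2.53 and 2.48 in place of 2.58 and 2.52.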
